A study of Mus musculus with 6 samples.

Results

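The genes described here are 35 genes that mark or are typical of border macrophages, the resident macrophages of the meninges and other edges of the brain. They were taken by symbol from the 55401 genes of the deposited tables, and each symbol matched 1 row. Of the 35 members, 34 passed the filter on low counts and were tested, and *Vsig4* did not pass. RNA was sequenced from dural lymphatic endothelial cells (LECs), which form the walls of lymphatic vessels, isolated from wild-type mice by flow cytometry. Per the study's methods these were male C57BL/6J mice that had received an adeno-associated virus (AAV) into the cisterna magna at 4 weeks of age. The interval from injection to sort was not given in the labels. In the AAV-VEGF-C group the virus encoded mouse VEGF-C, the main growth factor of lymphatic vessels. In the AAV-CTRL group it encoded a soluble part of the VEGF-C receptor VEGFR-3 that does not bind VEGF-C, so both groups carried a virus and a secreted protein. Each group had 3 libraries, numbered by the experiment they came from, and each library held RNA of 10 to 12 pooled dura, so no value belongs to a single animal. The gate was LYVE-1+, podoplanin+, CD31+ and CD45-, and it was meant to leave leukocytes out.

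Border macrophages live in the dura and leptomeninges and around vessels. They need signalling through CSF1R, take up proteins and debris through scavenger receptors such as MRC1 (CD206), CD163 and stabilin-1, and make the complement protein C1q. Many of them also carry LYVE-1, a surface protein used in the sort. Like all leukocytes they carry CD45, the product of *Ptprc*. Their lineage depends on the transcription factor PU.1, the product of *Spi1*, which binds purine-rich DNA with a GGAA core.

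Depth was uneven. The total of estimated counts was between 6530269 and 12399498 in the AAV-CTRL libraries and between 564475 and 3261935 in the AAV-VEGF-C libraries. The markers of the sorted cells were present: all 7 LEC markers (*Prox1*, *Flt4*, *Pdpn*, *Mmrn1*, *Reln*, *Nrp2* and *Lyve1*) had counts in all 6 libraries, and their summed level was between 73.2 and 234 TPM, an abundance corrected for gene length and library total. *Ptprc*, the gene of the antigen that the gate was set to leave out, was also present, and at very unequal levels. The libraries of experiment 1 stood apart from the other 4 in nearly every macrophage gene, so results are given with and without them. Some members overlap another annotated gene, 6 of them on the same strand (*Ptprc*, *Csf1r* and *Mrc1* included) and 7 on the other strand (*Stab1*, *Gas6* and *Ctsb* included), so their counts are uncertain: whether counting used strand was not given in the sources used here.

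The DNA just before the members' transcription start was searched for strings with the GGAA core. Windows from 250 bases before to 50 bases after the start were available in RefSeq (GRCm38.p6) for 28 of the 35 members, in 34 windows. The 6-letter string GAGGAA, a core of the PU.1 type, was found on either strand in 20 of the 34 windows (58.8%) and in 28.3% of 32851 windows of the same length from all genes. Its 7-letter extension GAGGAAG was in 35.3% of the member windows against 13.6% of all windows. The overlapping string GGAAGT was in 47.1% against 23.8%, the longer AGAGGAAGT was in 0 of 34 against 1.005%, and TTTCCT, the opposite strand of which shares GGAA with the others, was in 61.8% against 29.1%. These 5 strings were chosen after the values of the genes were known, some of them overlap, and the shares are descriptions without a test. Some genes had several windows, and any bearing of the strings on the differences between libraries was not tested. The sequences below show the string in capitals, on the strand of the gene, upstream of a RefSeq start. It reads TTCCTC where it lies on the opposite strand. The members shown have different roles and include *Stab1*, which did not pass edgeR's test between experiments given further on but passed that of DESeq2. For *Laptm5* the stretch lies inside the gene as annotated in GENCODE M21, which starts it at 130913125.
C1qb, complement chain, chr4:136886203-136886252, minus strand: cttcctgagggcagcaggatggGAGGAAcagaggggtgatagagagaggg
C1qc, complement chain, chr4:136893080-136893129, minus strand: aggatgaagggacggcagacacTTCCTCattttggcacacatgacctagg
Laptm5, leukocyte lysosomal protein, chr4:130913256-130913305, plus strand: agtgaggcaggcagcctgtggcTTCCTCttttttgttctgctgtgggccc
Ctss, lysosomal protease, chr3:95526600-95526649, plus strand: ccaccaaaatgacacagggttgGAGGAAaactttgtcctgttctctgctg
Fcgr1, receptor for immunoglobulin G, chr3:96293997-96294046, minus strand: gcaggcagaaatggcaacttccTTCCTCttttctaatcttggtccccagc
Mrc1, mannose receptor, chr2:14229357-14229406, plus strand: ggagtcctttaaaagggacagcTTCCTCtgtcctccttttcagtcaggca
Stab1, scavenger receptor, chr14:31168644-31168693, minus strand: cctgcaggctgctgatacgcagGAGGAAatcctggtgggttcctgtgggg

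The genes that define the cells as leukocytes and macrophages were examined before the others. *Ptprc* was at 0.119, 25.7 and 23.2 TPM in AAV-CTRL 1, 2 and 3 and at 0.337, 15.1 and 9.81 TPM in AAV-VEGF-C 1, 2 and 3. *Csf1r*, the receptor that macrophages need to survive, was at 1.97, 450 and 253 TPM in AAV-CTRL and at 5.92, 224 and 130 TPM in AAV-VEGF-C, in the same order. *Adgre1*, which encodes the macrophage antigen F4/80, was at 0.476, 116 and 78.2 TPM in AAV-CTRL and at 0, 44.1 and 28.7 TPM in AAV-VEGF-C. For each of these genes both libraries of experiment 1 lay below all 4 others, and the groups overlapped. *Spi1*, *Laptm5* and *Aif1*, a calcium-binding protein of macrophages and microglia known as IBA1, ranged from 0.284 to 0.851 TPM in the experiment 1 libraries and from 11.0 to 122 TPM in the others. The AAV-CTRL libraries held 5, 1126 and 1286 counts of *Ptprc*, and the AAV-VEGF-C libraries held 1, 177 and 245.

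**Figure D1:**
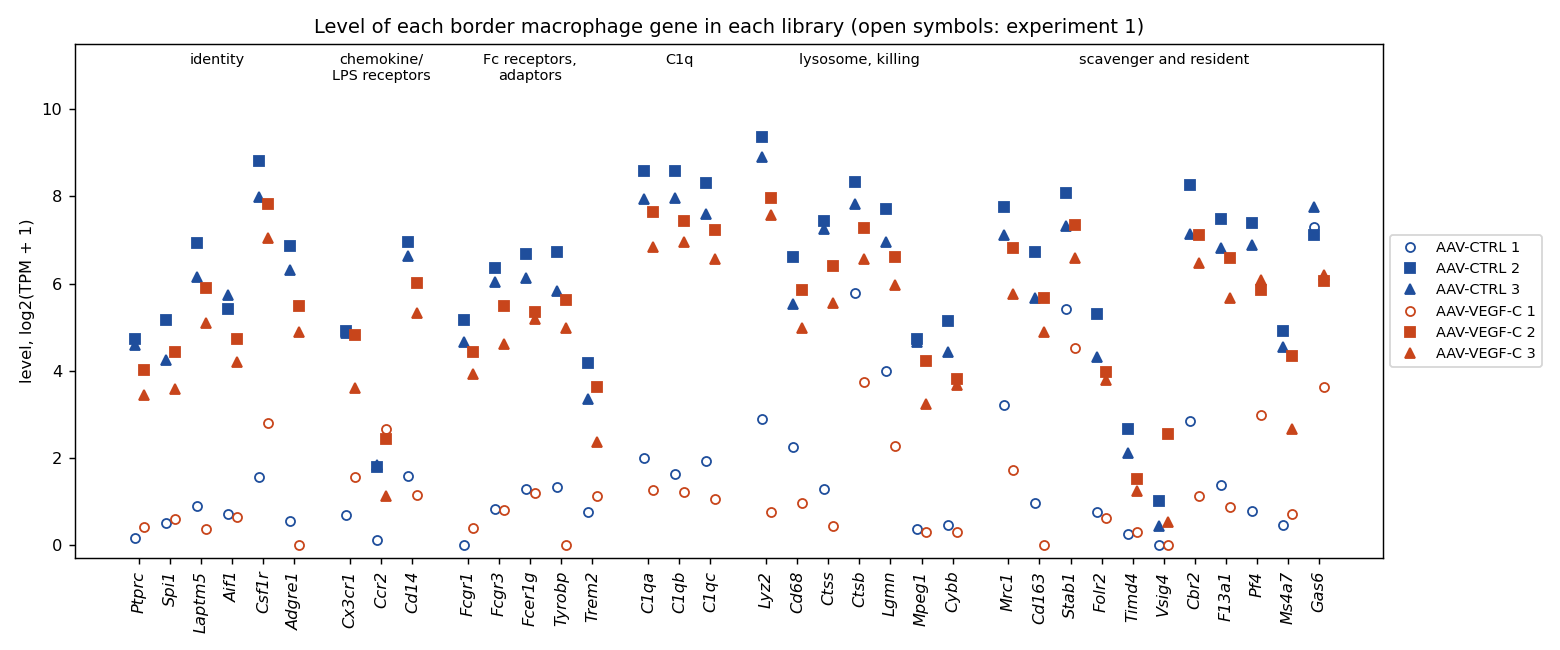
Level of the 35 members in each of the 6 libraries, as log2(TPM + 1) on the vertical axis, with genes grouped by role on the horizontal axis. Blue marks AAV-CTRL and orange AAV-VEGF-C, and open circles, squares and triangles are experiments 1, 2 and 3. The open circles lie below the other symbols for 33 of 35 members, with *Ccr2* and *Gas6* as the exceptions.

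Complement C1q, which tags debris and synapses for uptake, is made of the 3 chains encoded by *C1qa*, *C1qb* and *C1qc*. *C1qa* was at 2.98, 383 and 244 TPM in AAV-CTRL 1, 2 and 3 and at 1.39, 199 and 113 TPM in AAV-VEGF-C 1, 2 and 3. *C1qb* and *C1qc* were between 1.07 and 2.78 TPM in the experiment 1 libraries and between 94.0 and 382 TPM in the others. The ratio of *C1qa* to *C1qc* in TPM was between 1.20 and 1.34 in the 4 libraries of experiments 2 and 3, and that of *C1qb* to *C1qc* was between 1.15 and 1.32. In AAV-CTRL 1 the ratios were 1.07 and 0.748, the latter on 27 counts of *C1qb*. In AAV-VEGF-C 1 the chains had 4, 4 and 3 counts, too few for a ratio.

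Genes of the lysosome and of killing held the most abundant member. *Lyz2*, the lysozyme of macrophages and other myeloid cells, was at 6.40, 656 and 475 TPM in AAV-CTRL 1, 2 and 3 and at 0.677, 250 and 191 TPM in AAV-VEGF-C 1, 2 and 3. It was the highest of the 35 members in each of the 4 libraries of experiments 2 and 3. *Ctss*, a protease of antigen-presenting cells, was at 1.42, 172 and 152 TPM in AAV-CTRL and at 0.362, 83.7 and 46.1 TPM in AAV-VEGF-C. *Cd68*, the pore-forming *Mpeg1* and *Cybb*, a subunit of the oxidase that makes superoxide, were between 0.223 and 3.77 TPM in experiment 1 and between 8.49 and 97.1 TPM in the others. The proteases *Ctsb* and *Lgmn* are used by many cell types and kept more of their level. *Ctsb* was at 54.1, 323 and 225 TPM in AAV-CTRL and at 12.3, 153 and 94.0 TPM in AAV-VEGF-C.

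The receptors for antibody and their adaptors showed the same split between experiment 1 and the rest. *Tyrobp*, the adaptor DAP12 that carries the signal of several myeloid receptors, was at 1.52, 104 and 55.8 TPM in AAV-CTRL 1, 2 and 3 and at 0, 48.1 and 30.6 TPM in AAV-VEGF-C 1, 2 and 3. *Fcgr1*, *Fcgr3* and their shared signalling chain *Fcer1g* were between 0 and 1.44 TPM in experiment 1 and between 14.1 and 101 TPM in experiments 2 and 3. *Trem2*, a lipid receptor that signals through DAP12, was low, at 0.682, 17.2 and 9.29 TPM in AAV-CTRL and at 1.17, 11.4 and 4.13 TPM in AAV-VEGF-C. Its 6 counts in AAV-VEGF-C 1 were too few to place it.

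Scavenger receptors and other genes of resident macrophages were split by how widely they are used. *Cd163*, the receptor for haemoglobin bound to haptoglobin, was at 0.940, 104 and 49.9 TPM in AAV-CTRL 1, 2 and 3 and at 0, 49.9 and 28.5 TPM in AAV-VEGF-C 1, 2 and 3. *Mrc1*, also known in lymphatic and liver endothelium, was at 8.25, 214 and 138 TPM in AAV-CTRL and at 2.30, 111 and 53.4 TPM in AAV-VEGF-C. *Stab1*, which lymphatic endothelium uses too, was at 41.9, 269 and 159 TPM in AAV-CTRL and at 22.1, 161 and 95.7 TPM in AAV-VEGF-C. For these 3 receptors experiment 1 was again the lowest of each group, with the smallest gap for *Stab1*. *Gas6*, the ligand of the uptake receptors AXL and MERTK and a gene of many stromal cells, did not follow in AAV-CTRL, at 158, 137 and 215 TPM. In AAV-VEGF-C it was at 11.4, 65.5 and 72.6 TPM, and experiment 1 was the lowest there. The chemokine *Pf4*, the clotting factor chain *F13a1*, the folate receptor *Folr2*, the carbonyl reductase *Cbr2* and the membrane protein *Ms4a7* were between 0.383 and 6.94 TPM in experiment 1 and between 5.34 and 307 TPM in the other libraries. *Timd4*, a receptor for phosphatidylserine, was at most 5.30 TPM in any library, and *Vsig4*, a complement receptor, had between 0 and 16 counts.

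Of the receptors that guide monocytes or sense bacteria, *Cd14* and *Cx3cr1* were lowest in experiment 1 and *Ccr2* was not. *Cd14*, the co-receptor for lipopolysaccharide, was at 1.99, 123 and 98.8 TPM in AAV-CTRL 1, 2 and 3 and at 1.21, 64.1 and 39.0 TPM in AAV-VEGF-C 1, 2 and 3. *Cx3cr1*, the fractalkine receptor, was at 0.623, 28.97 and 28.0 TPM in AAV-CTRL and at 1.95, 27.3 and 11.1 TPM in AAV-VEGF-C. Its span overlaps 9 annotated genes, so its counts are uncertain. *Ccr2*, the receptor that recruits monocytes from blood, was at 0.081, 2.48 and 2.59 TPM in AAV-CTRL and at 5.38, 4.44 and 1.16 TPM in AAV-VEGF-C. The order of its AAV-VEGF-C libraries was the reverse of the order of their depth: its counts were 47, 65.5 and 34.98 there.

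The difference between experiments was then measured gene by gene. In AAV-CTRL, counts scaled by TMM factors (a scaling by library size and composition) were pooled over experiments 2 and 3 and divided by those of experiment 1. For the 32 members with at least 4 counts in AAV-CTRL 1 the median ratio was 46.8, 28 members were over 10-fold and 16 were over 50-fold. *Ptprc* had the highest of these, 133-fold (95% counting interval 56.8 to 409). The interval covers counting error only, here and below. *Csf1r* was 62.7-fold (51.5 to 77.1), *C1qa* 65.6-fold (47.8 to 92.8), *Lyz2* 59.2-fold (48.0 to 73.9) and *Cd163* 52.7-fold (39.3 to 72.3). *Fcgr1*, with 0 counts in AAV-CTRL 1, was at least 97.1-fold higher against a floor of 3 counts per library, and *Pf4*, with 2 counts, was 247-fold (68.2 to 2040).

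The 6 members that other cells are known to use were 6 of the 7 members with the lowest ratios in AAV-CTRL, together with *Ccr2*. *Cd68* was 14.0-fold (10.4 to 19.4), *Mrc1* 15.4-fold (14.0 to 17.0) and *Lgmn* 7.20-fold (6.44 to 8.08). *Ctsb* was 3.41-fold (3.24 to 3.59), *Stab1* 3.16-fold (3.05 to 3.29) and *Gas6* 0.749-fold (0.725 to 0.774). Summed over these 6 genes the ratio was 2.69 (2.64 to 2.75), and summed over the other 29 members it was 59.5 (54.9 to 64.4). *Gas6* and *Stab1* gave 5010 and 2904 of the 10282 counts of the 6 in AAV-CTRL 1. The 6 were chosen with earlier results of these data known, so the split is a description and not a test.

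**Figure D2:**
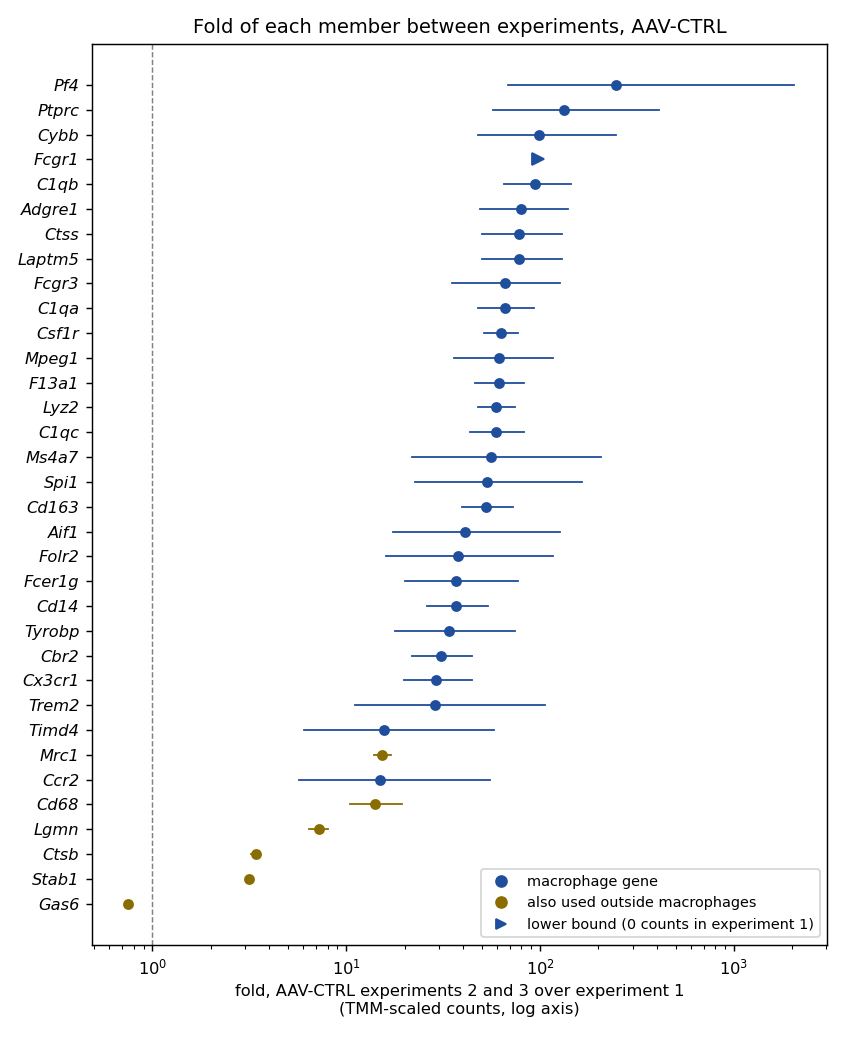
Ratio of the TMM-scaled level in AAV-CTRL experiments 2 and 3 to that in AAV-CTRL experiment 1 for 34 members (horizontal log axis; *Vsig4* is left out for its few counts). Points are ratios, bars are 95% counting intervals, the arrowhead is a lower bound, and the dashed line marks a ratio of 1. The 6 genes also used outside macrophages, in ochre, lie between 0.749 and 15.4, and 28 of the 32 members with at least 4 counts lie above 10.

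In AAV-VEGF-C the same comparison was limited by the depth of AAV-VEGF-C 1, where 21 members had at most 3 counts and 4 had 0. For the 14 members with at least 4 counts there the median ratio was 3.94, 5 members were over 10-fold and 0 were over 50-fold. This cut drops the members with the fewest counts in AAV-VEGF-C 1, the divisor, and so favours low ratios. The median is therefore not comparable with that of AAV-CTRL. Dropped members with any counts there ran from 2.75-fold (*Timd4*, 0.459 to 112) to 124-fold (*Lyz2*, 34.3 to 1024). *Trem2* was 1.61-fold (0.718 to 4.49), *Cx3cr1* 3.44-fold (2.13 to 5.95), *Pf4* 3.46-fold (1.80 to 7.64) and *Ms4a7* 3.53-fold (1.35 to 13.1). *Csf1r* was 30.1-fold (17.6 to 56.5), *C1qa* 39.5-fold (15.4 to 145) and *Mrc1* 14.0-fold (9.31 to 22.1). The sum of the 29 members was 15.5-fold (13.1 to 18.4). *Ccr2* and *Cx3cr1* gave 47 and 17 of the 138 counts of these 29 genes in AAV-VEGF-C 1. *Ccr2* alone went the other way, at 0.190-fold (0.134 to 0.276). At the scaled level of experiment 2 in the same group, AAV-CTRL 1 would have held 892 counts of *Ptprc* and AAV-VEGF-C 1 would have held 54.9, against 5 and 1 found. *Lyz2* would have had 7940 and 353, against 88 and 2.

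A test of the experiment number across all genes, chosen after these values had been seen, was fitted with edgeR's quasi-likelihood F test and the group as a second term. Of the 34 tested members, 27 had an adjusted p under 0.05, against 411 of all 17459 tested genes (2.35%), and 32 had an unadjusted p under 0.05. All 6 identity genes, all 3 C1q chains and all 7 genes of the lysosome and killing were called, with 4 of 5 Fc receptors and adaptors, 6 of 10 tested scavenger and resident genes and 1 of 3 chemokine and monocyte receptors. The lowest adjusted p among members was 0.0015. On the log2 scale *Ptprc* was higher by 7.19 in experiment 2 and by 6.41 in experiment 3 than in experiment 1 (adjusted p 0.0017), and *Csf1r* by 6.28 and 4.93 (adjusted p 0.0021). *Gas6* differed by 0.37 and 0.26 (adjusted p 0.971) and *Ccr2* by 0.15 and -0.69 (adjusted p 0.971). The other members not called were *Cx3cr1* (adjusted p 0.0678), *Stab1* (0.110), *Timd4* (0.146), *Trem2* (0.163) and *Pf4* (0.197). With a library left out edgeR's count of called members lay between 20 (without AAV-CTRL 2) and 32. DESeq2's likelihood ratio test called 29 of the 34 members, against 4.8% of all genes it tested. *Stab1* (adjusted p 2.09e-06) and *Cx3cr1* (2.21e-05) were among them.

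Both experiment 1 libraries lay below all of the other 4 on TMM-scaled counts in 31 of the 34 tested members, and in 9.83% of all tested genes. Experiment 2 was above experiment 3 in 34 of 35 members in AAV-CTRL and in 35 of 35 in AAV-VEGF-C. The share of all tested genes with this order was not measured, so it is unknown whether the members differ from other genes in it. The log2 difference of experiment 3 from experiment 2 was -0.78 for *Ptprc*, -1.34 for *Csf1r* and -1.26 for *C1qa*. The labels give the experiment only as a number, so what differed between experiments cannot be told apart. In bulk samples fewer macrophages and less RNA of these genes per cell cannot be told apart either.

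The summed TPM of the 29 members not shared with other cells was 0.165, 21.6 and 12.98 times the summed TPM of the 7 LEC markers in AAV-CTRL 1, 2 and 3. It was 0.222, 17.8 and 16.8 times that sum in AAV-VEGF-C 1, 2 and 3. So in 4 of the 6 libraries labelled as LECs the macrophage genes had at least 12.98 times the summed abundance of the LEC markers, a value that also depends on which and how many genes are summed. *Prox1*, the transcription factor that specifies lymphatic endothelium, was highest in the experiment 1 library of each group, at 14.1, 6.44 and 7.45 TPM in AAV-CTRL and at 9.62, 4.31 and 3.15 TPM in AAV-VEGF-C. *Mmrn1*, *Reln* and *Flt4* were highest there too. *Pdpn* was highest there only in AAV-CTRL, and *Nrp2* only in AAV-VEGF-C, being lowest there in AAV-CTRL. *Lyve1* was lowest in experiment 1 of both groups, at 16, 42.0 and 22.6 TPM in AAV-CTRL and 9.61, 13.8 and 11.1 TPM in AAV-VEGF-C. By edgeR *Prox1* was called between experiments (adjusted p 0.0335), as was *Reln* (0.0357), and the other 5 LEC markers were not. DESeq2, which called 4.8% of all genes it tested between experiments, also called *Mmrn1* (adjusted p 5.88e-05) and *Flt4* (0.000164).

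Among the 4 libraries of experiments 2 and 3 the makeup of the members was much alike. Each gene's share of the summed member TPM varied by less than 2-fold between these libraries for 31 of the 35 members, with a median of 1.39 for the highest share over the lowest. *Lyz2* took from 9.78% to 13.3% of the sum, *Csf1r* from 7.08% to 8.78% and *C1qa* from 6.84% to 7.81%. The exceptions were *Ccr2*, *Ms4a7*, *Vsig4* and *Gas6*. In each of these libraries *Lyz2* was the most abundant member, *Csf1r* the next, and *C1qa* or *C1qb* followed. In the experiment 1 libraries the 3 most abundant members were *Gas6*, *Ctsb* and *Stab1* in AAV-CTRL and *Stab1*, *Ctsb* and *Gas6* in AAV-VEGF-C, all genes that other cells also use.

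As a measure of background, the members were set beside 2187 genes of families that neither endothelium nor macrophages are known to use, such as olfactory and vomeronasal receptors. The 95th percentile of these genes was 0.153 TPM in AAV-CTRL 1, and 31 of 35 members lay above it, with *Ptprc*, *Fcgr1*, *Ccr2* and *Vsig4* at or below it. In AAV-VEGF-C 1 it was 1.38 TPM, and 10 members lay above it, *Csf1r*, *Mrc1* and *Stab1* among them, while *Ptprc*, *Lyz2* and *Cd163* did not. In the other 4 libraries at least 34 of 35 members did.

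To ask whether VEGF-C changed the macrophage genes found in the sorted fraction, the groups were compared by edgeR's quasi-likelihood test, with AAV-VEGF-C over AAV-CTRL as the direction. Of the 34 tested members, 0 were higher and 0 were lower at an adjusted p under 0.05, against 10.5% of all tested genes higher and 0.659% lower. At an unadjusted p under 0.05 the count was 1, *Ccr2*. The median log2 fold change of the members was -0.16, with 26 below 0 and 8 above, beside -0.0037 for all tested genes. It turned positive when AAV-CTRL 2 was left out (0.98), when AAV-VEGF-C 1 was left out (0.25) and when genes under a mean of 5 TPM were left out (0.15), with 26 of 32 members above 0 in the last.

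For the identity genes the group means were dominated by the gap between experiments. *Ptprc* was at 16.3 ± 14.1 TPM in AAV-CTRL and at 8.40 ± 7.46 TPM in AAV-VEGF-C (SD, n = 3), with a log2 fold change on counts of -0.16 (SE 1.38, edgeR adjusted p 0.960). *Csf1r* was at 235 ± 225 and 120 ± 110 TPM (SD, n = 3), with -0.12 (SE 1.46, edgeR adjusted p 0.974). The groups overlapped for both. The log2 fold change was -0.065 for *C1qa* (SE 1.45, adjusted p 0.987), -0.54 for *Lyz2* (SE 1.52, adjusted p 0.860) and -0.22 for *Cd163* (SE 1.58, adjusted p 0.955). *Mrc1* had -0.32 (SE 1.20, adjusted p 0.901), *Stab1* 0.15 (SE 0.69, adjusted p 0.921) and *Gas6* -0.87 (SE 0.41, adjusted p 0.210). The highest *Gas6* value in AAV-VEGF-C, 72.6 TPM, lay below the lowest in AAV-CTRL, 137 TPM. The groups were also apart for *Gas6* on TMM-scaled CPM (counts relative to library total), at 187 to 485 in AAV-VEGF-C and at 599 to 804 in AAV-CTRL. No other tested member was lower in every AAV-VEGF-C library on either scale, where 36.4% of all tested genes were on TPM and 17.6% on TMM-scaled counts.

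With SEs of this size the comparison could show only very large changes. The SE of the log2 fold change had a median of 1.28 over the tested members. With the experiment number as a block the median SE was 0.357, and 0 members were called in either direction, with 2 at an unadjusted p under 0.05, against 12.8% of all tested genes called higher and 2.07% lower in that fit. The 95% interval of the log2 fold change with the block ran from -0.91 to 0.60 for *Ptprc*, from -0.62 to 1.01 for *Csf1r*, from -0.65 to 0.77 for *C1qa* and from -1.44 to 0.14 for *Lyz2*. Only *Ccr2* and *Gas6* had intervals that left out 0, at 0.22 to 4.999 and -1.86 to -0.03, and neither passed the adjustment (adjusted p 0.128 and 0.146). The direction of *Csf1r* and *C1qa* turned with the block, to 0.19 and 0.059.

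**Figure D3:**
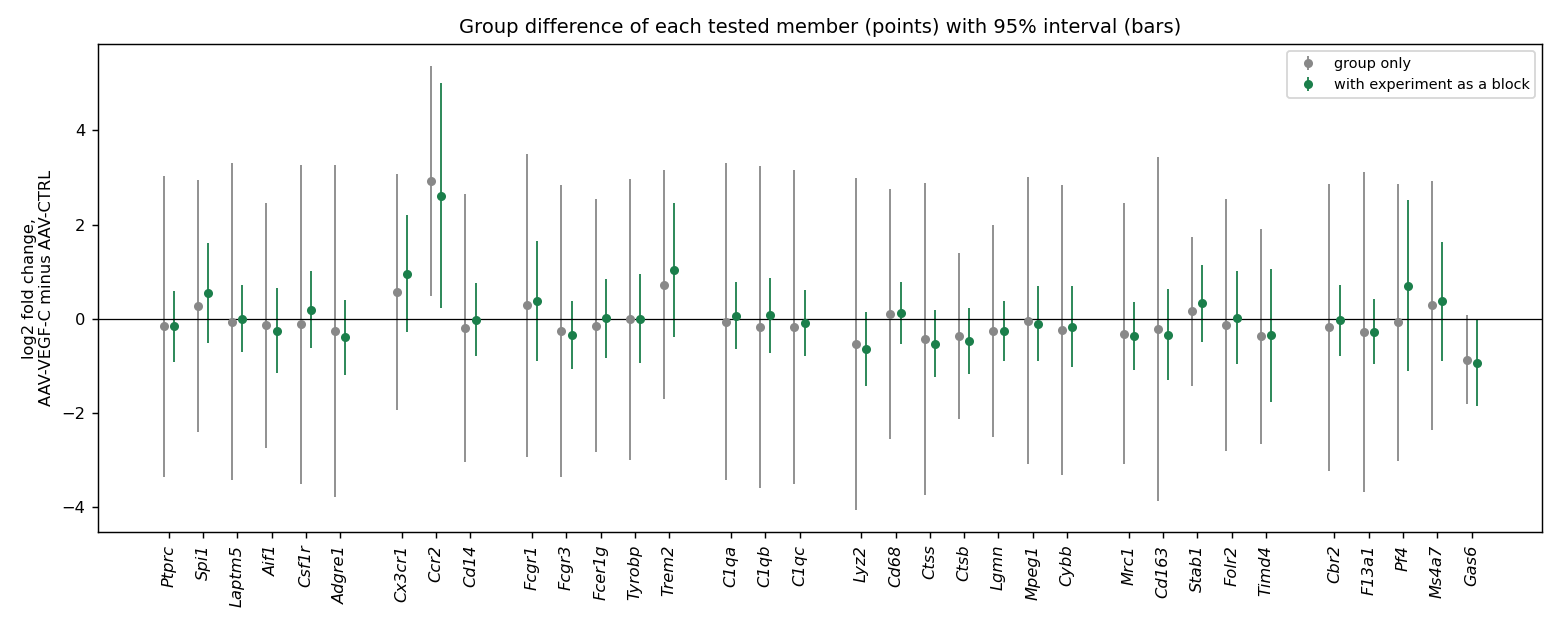
Log2 fold change of AAV-VEGF-C over AAV-CTRL (vertical axis) for the 34 tested members (horizontal axis). Grey points are from the fit on the group alone and green points from the fit with the experiment as a block, and bars are 95% intervals. The green bars are shorter, and *Ccr2* and *Gas6* are the members whose green bars leave out 0.

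*Ccr2* was the member nearest to a call. Its log2 fold change was 2.92 (SE 1.05, edgeR adjusted p 0.119), and it was called higher by DESeq2 (adjusted p 0.0198) and by edgeR with no filter on low counts (adjusted p 4.07e-06). Higher calls were common in both, at 19.4% of 29204 genes with DESeq2 and 21.1% of 44563 with no filter, where 2.64% were lower. *Ccr2* was the only member that any of the fits called between the groups. Its groups overlapped in TPM. Within experiments the log2 difference was 7.40 in experiment 1, on 4 and 47 counts, 2.12 in experiment 2 and 0.18 in experiment 3. Without experiment 1 edgeR called 0 members, and 0 had an unadjusted p under 0.05.

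The log2 ratio of AAV-VEGF-C to AAV-CTRL in the summed TMM-scaled level of the 35 members was -0.21, -0.24 and -0.12 in experiments 1, 2 and 3, and -0.20 for the group means. In experiment 1 this sum was led by the 6 genes that other cells also use, with a ratio of -0.47, while the other 29 members went the opposite way at 1.68, on the 138 counts of AAV-VEGF-C 1. In experiments 2 and 3 the ratio of these 29 was -0.27 and -0.092. On summed TPM the ratio of the means was -1.11, and per summed LEC marker TPM it was -0.0071. The families taken as background summed to between 51.8 and 74.9 TPM in AAV-CTRL and between 723 and 787 TPM in AAV-VEGF-C, and their part in the lower TPM of the members was not tested. Gene by gene, 21 of the 30 members with counts in both libraries of experiment 1 were higher in AAV-VEGF-C and 9 were lower (median log2 difference 0.998). The median of all tested genes there was -0.060. Because AAV-VEGF-C 1 was so shallow, a single count of *Ptprc* there, beside 5 in AAV-CTRL 1, gave a difference of 1.525. The rule also dropped *Cd163*, *Adgre1* and *Tyrobp*, seen only in AAV-CTRL 1 (45, 16 and 9 counts). It dropped *Fcgr1* too, seen only in AAV-VEGF-C 1 (2 counts). The split in experiment 1 therefore gives no direction for the members. In experiment 2, 28 of 34 tested members were lower (median -0.26, beside 0.030 for all tested genes). In experiment 3, 18 were lower and 16 higher (median -0.04, beside 0.007 for all tested genes). The share of all tested genes that were lower in each of these experiments alone was not measured. Of the 34, 15 were lower in both experiments, *Lyz2*, *Ptprc*, *Mrc1* and *Ctss* among them, where 33.8% of all tested genes were. The 3 higher in both were *Fcgr1*, *Trem2* and *Ccr2*, named after their values were seen.

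Other genes of macrophages were measured through a list of 46 symbols. Of these 45 were tested and 33 were called between experiments by the test given above. Between the groups 0 were called by edgeR or by DESeq2, and 0 had an unadjusted p under 0.05 in either. *Apoe*, the lipid carrier that is abundant in border macrophages, was at 673, 6998 and 4343 TPM in AAV-CTRL 1, 2 and 3 and at 88.3, 2973 and 2366 TPM in AAV-VEGF-C 1, 2 and 3. *Dab2*, an endocytic adaptor, was at 50.9, 234 and 219 TPM in AAV-CTRL and at 7.86, 139 and 92.8 TPM in AAV-VEGF-C. *Axl*, a receptor of *Gas6*, was at 84.5, 201 and 102 TPM in AAV-CTRL and at 2.85, 79.5 and 74.4 TPM in AAV-VEGF-C.

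Of 14 genes of CSF1 signalling, 8 were called between experiments. Between the groups 0 were called, with 0 at an unadjusted p under 0.05 by edgeR and 1 by DESeq2. The called genes were the receptor *Csf1r*, *Spi1*, *Tyrobp* and the signalling genes *Inpp5d*, *Ptpn6*, *Plcg2*, *Fyb* and *Vav1*, which leukocytes use. The ligands, which stromal cells make, were named after their values were seen. *Csf1* was at 16.95, 9.55 and 24.3 TPM in AAV-CTRL 1, 2 and 3 and at 5.54, 4.11 and 5.56 TPM in AAV-VEGF-C 1, 2 and 3. *Il34* was between 0.757 and 7.26 TPM. Neither ligand was lowest in experiment 1 in AAV-CTRL, unlike the receptor.

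Markers of other cells that dura or the gate could hold were counted by list. Of 8 microglia markers 7 were tested and 4 were called between experiments, with *Fcrls* the most abundant at 93.9 and 66.9 TPM in AAV-CTRL 2 and 3. *Tmem119*, which stromal cells also express, was at 19.9 TPM in AAV-CTRL 1, where *Fcrls* was at 0.578. Of 12 monocyte and dendritic markers 5 were tested and 1, *Siglech*, was called between experiments. Summed levels were at most 9.76 TPM for 6 T cell markers and 4.27 TPM for 5 mast cell markers, and from 4.25 to 34.8 TPM for 6 B cell markers, most of it *Ebf1*. Neutrophil markers summed to 0.328, 38.1 and 22.5 TPM in AAV-CTRL and to 0.840, 1.68 and 82.4 TPM in AAV-VEGF-C, an order of libraries unlike that of the members. Erythroid genes summed to 9.21, 132 and 183 TPM in AAV-CTRL and to 0, 6.82 and 84.4 TPM in AAV-VEGF-C. They too were lowest in experiment 1 of each group. Of 5 tested, edgeR called *Hbb-bs* between experiments, and DESeq2 called *Hbb-bs*, *Hba-a1* and *Hba-a2*. Fibroblast genes, led by *Col1a1*, summed to between 260 and 2156 TPM and were highest in AAV-CTRL 1 and lowest in AAV-VEGF-C 1, both libraries in which the macrophage genes were low. Blood and general endothelial genes summed to between 62.4 and 550 TPM.

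**Figure D4:**
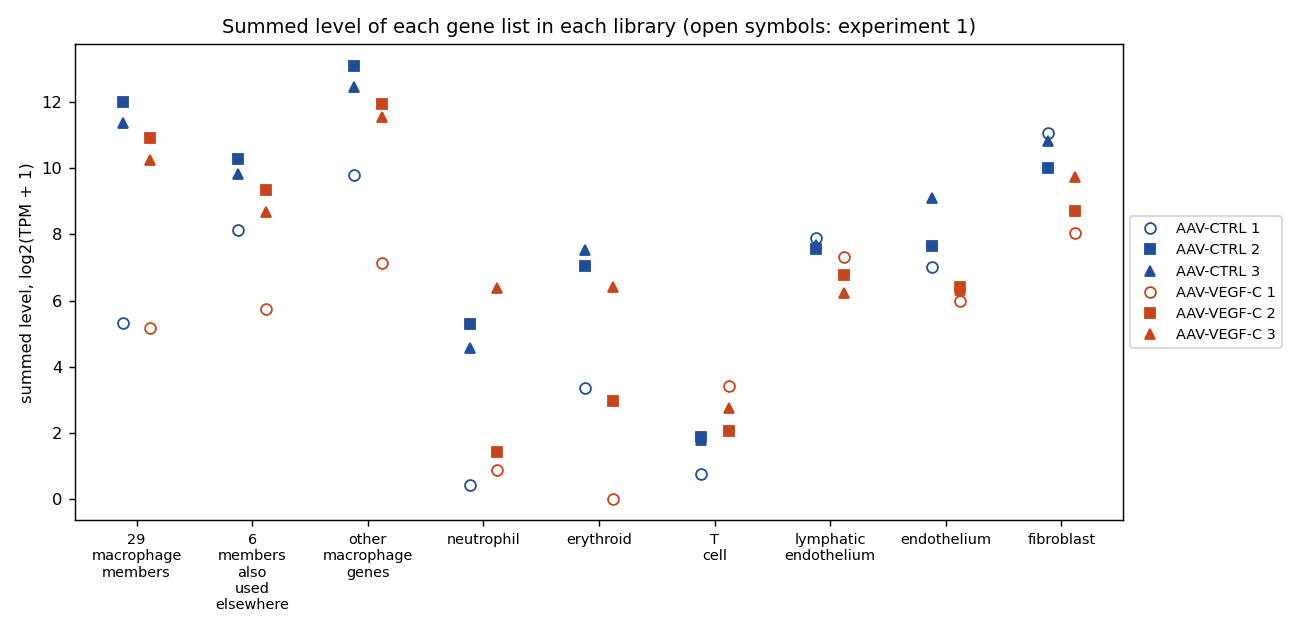
Summed level of each gene list, as log2(TPM + 1) on the vertical axis, in each of the 6 libraries, with symbols as in the plot of member levels. The 2 open circles, experiment 1, lie below the other libraries for the macrophage lists and the neutrophil list. For the lymphatic endothelial genes they lie within or above the others.

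Between the groups edgeR called 0 genes of the neutrophil, erythroid, LEC and endothelial lists, with 0 at an unadjusted p under 0.05, and DESeq2 called 0 as well. Of these lists edgeR tested only 3 of 8 neutrophil genes and 5 of 6 erythroid genes. Without experiment 1 edgeR called 2 of 6 endothelial genes lower, the junction genes *Cdh5* (log2 fold change -1.43, adjusted p 0.0460) and *Pecam1* (-1.73, adjusted p 0.0336), against 0.572% of all tested genes, and 5 of the 6 had an unadjusted p under 0.05. *Pecam1* encodes CD31, an antigen of the gate. With all libraries edgeR called 0 genes of the microglia, osteoclast and T cell lists, with 1 each at an unadjusted p under 0.05. It called 0 of the monocyte and dendritic list and of the B cell list, with 2 each. In these lists it tested 7 of 8 microglia, 5 of 9 osteoclast, 2 of 6 T cell, 5 of 12 monocyte and dendritic and 4 of 6 B cell genes. The others did not pass the filter, so these counts do not cover them. Without experiment 1 it called *Flt3* of the monocyte and dendritic list higher (adjusted p 0.0485), against 9.79% of all tested genes. DESeq2, which keeps more low genes and called 19.4% of all genes it tested higher and 1.72% lower, called *Fcnb*, *Itgax*, *Xcr1* and *Ly6c2* of 12 monocyte and dendritic markers higher. It also called *Slc2a5*, *Ocstamp*, *Calcr*, *Tpsab1*, *Lat* and *Cd3d* of the microglia, osteoclast, mast cell and T cell lists higher, and *Ctsk*, *Ctsl*, *Pdgfra*, *Dcn* and *Lum* lower. These names were taken after their values were seen. By edgeR, called lower in AAV-VEGF-C were *Dcn* of 6 fibroblast genes (log2 fold change -1.69, edgeR adjusted p 0.0287) and *Ctsl* of 6 tested close relatives of members (-1.01, adjusted p 0.0472), both also chosen after that. Neither was called without experiment 1. With the experiment as a block *Lum* (adjusted p 0.0439) and *Pdgfra* (0.0495) joined *Dcn*, *Ctsk* of the osteoclast list was lower (0.0223) and *Cd3d* of the T cell list was higher (0.0308). Among relatives that could share reads with members, *Lyz1*, a close relative of *Lyz2*, was between 0 and 10.8 TPM, and *Fcgr2b* was between 0.559 and 69.2 TPM. The part of such shared reads in the counts of *Lyz2* and *Fcgr3*, which are not all whole numbers, was not tested.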

How the data were processed

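RNA of sorted dural LECs was measured by bulk sequencing in 6 libraries made with a stranded low-input total RNA kit. The deposited tables hold estimated counts for each gene, which the authors did not scale, and TPM. The submitters' processing notes name FastQC, Trimmomatic, DRAGEN, Picard and the build mm10, and the use of strand in counting was not given in the sources used here. Gene identifiers of all 35 members equal those of GENCODE M21 (GRCm38), which gave overlaps. Of the members, 24 overlap no other gene.

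Estimated counts were rounded. Genes were kept by filterByExpr of edgeR 4.0.16 (R 4.3.3), scaled by TMM factors and compared by its quasi-likelihood test, with Benjamini-Hochberg adjustment over all tested genes at 0.05. DESeq2 1.42.0 and limma 3.58.1 on log2(TPM + 1) and log2(TPM + 0.1) were alternatives, beside other scalings and filters, the replicate block and each library left out. The steps were tested on simulated data. Ratios of counts have exact 95% intervals, and 3 counts per library were taken as the floor. Reads were not shown to be single molecules, so intervals cover counting error only, and p-values measure the spread between pooled libraries.

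The titles tie replicate numbers to repeats of the experiment. After the group means were taken away, libraries with the same number correlated across genes (no independent replicates) at 0.42, 0.33 and 0.16, so the numbers were taken to pair the libraries. The members and lists were chosen with earlier results of these data known. Level and range are given for every member, and a fold change with SE and adjusted p for 8 anchor members (*Ptprc*, *Csf1r*, *C1qa*, *Lyz2*, *Mrc1*, *Cd163*, *Stab1*, *Gas6*) and any member past the threshold. From other lists the genes with the largest mean TPM were named. Other genes of these lists were named after their values were seen, because a fit called them or for their pattern over the libraries. The test of the experiment number, the fits without experiment 1 and the promoter strings were added after the data had been seen. Sequences came from RefSeq.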

Additional observations from a re-analysis of the deposited data

How the results depend on the processing

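That no member was called lower in AAV-VEGF-C held in every fit run, and 1 member, *Ccr2*, was called higher with no filter and under DESeq2. The 27 members called between experiments stayed between 20 and 32 in every fit. The median log2 fold change of the members was -0.91 under limma on log2(TPM + 0.1), beside -1.04 for all tested genes. Under limma on log2(TPM + 1) it was -0.82, beside -0.72 for all tested genes. It was 0.15 with the filter at a mean of 5 TPM, beside -0.038 for all tested genes, and from -1.17 to 0.98 with a library left out. The summed log2 ratio was -1.11 on TPM, -0.29 with library size alone and -0.0071 per summed LEC marker TPM, and from -1.05 to 0.71 with a library left out. The replicate block, which is the pairing by experiment, changed no member's call. Under it *Csf1r* turned to 0.19 and *C1qa* to 0.059. With the filter set at a mean of 5 TPM, *Ptprc* was at 0.13, *Csf1r* at 0.16, *C1qa* at 0.21 and *Cd163* at 0.060. *Stab1* was at -0.079 with no filter, -0.79 under limma on log2(TPM + 1), -0.80 with 0.1 in place of 1, and -0.026 without experiment 1. With a library left out the anchors ran from -1.06 to 0.59 (*Ptprc*), -1.27 to 1.17 (*Csf1r*), -1.23 to 1.11 (*C1qa*), -1.48 to 0.44 (*Lyz2*), -1.62 to 0.64 (*Mrc1*), -1.42 to 1.18 (*Cd163*) and -0.54 to 0.98 (*Stab1*). The highest of these values came without AAV-CTRL replicate 2 and the lowest without AAV-VEGF-C replicate 2. The cause of these changes was not tested. The depth of AAV-VEGF-C 1 left 21 members with at most 3 counts there.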
